A study of Homo sapiens with 6 samples.

Results

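A set of 10 genes of the Notch pathway was followed by their symbols in the deposited table, namely the receptors NOTCH1, NOTCH2 and NOTCH3, the ligands JAG1, JAG2, DLL1 and DLL4, and the target genes HES1, HEY1 and NRARP. All 10 were present among the 61806 genes of the table. RNA was sequenced in 6 libraries from cultures of MDA-MB-231, which is an established line of triple-negative breast cancer. The 3 groups of 2 libraries each were the control shNC and the knockdown lines shHMGA2-1 and shHMGA2-2. The 2 knockdown lines each carried a different lentiviral shRNA against HMGA2, an architectural chromatin protein. The vector of shNC is not described in the sources used here, and its library names read WT. All lines share the MDA-MB-231 background. The methods describe puromycin selection and expansion of knockdown cells from a single clone, so the effect of an shRNA and the character of a clone cannot be told apart. Nothing in the labels places the 2 libraries of a line in separate cultures, so the p-values measure only the spread between libraries, which may be technical.

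Notch receptors are transmembrane proteins that are activated by Jagged or Delta-like ligands on a neighbouring cell. Binding is followed by cleavage, first by an ADAM protease and then by γ-secretase, and the freed intracellular domain enters the nucleus. There it joins the DNA-binding protein RBPJ and a Mastermind coactivator, and genes such as HES1, HEY1 and NRARP are transcribed. In breast epithelium the pathway takes part in cell fate decisions, and JAG1 and NOTCH1 have been studied widely in triple-negative tumours.

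The libraries held 16461178 to 17167293 counts. HMGA2 itself was counted 2126 and 2161 times in the control libraries, 858 and 989 times with shHMGA2-1 and 435 and 482 times with shHMGA2-2, with log2 fold changes against shNC of -1.29 and -2.31. The line's mesenchymal markers were present in every library, led by VIM (411 to 425 FPKM as means of the lines; FPKM are counts scaled by exon length and library total). Of the markers listed as absent or low in this line, the hormone receptor genes ESR1 and PGR had at most 12 counts and CDH1 at most 4. ERBB2 was present, with 1126 to 1909 counts. EPCAM had 274 and 302 counts in shHMGA2-1 and 127 to 146 in the other lines. The sums of 6 leukocyte markers and of 6 fibroblast markers reached at most 0.52 and 1.54 FPKM. The sum of 6 endothelial markers was 57.3 to 58.9 FPKM in shNC, 40.0 to 45.6 in shHMGA2-1 and 4.13 to 4.74 in shHMGA2-2. ESAM made up most of it in every line. KDR measured 0.42 to 0.58 FPKM over the libraries, and CDH5 stayed at or below 0.04. KRT8, a keratin of luminal cells, averaged 11.02, 12.3 and 28.5 FPKM in the same order. The sum of 6 other luminal markers was 42.3 to 44.6 FPKM in shNC, 33.0 to 37.5 in shHMGA2-1 and 40.4 to 43.3 in shHMGA2-2. Most of it was KRT18, at 28.3 to 37.4 FPKM. In shHMGA2-2 GATA3 was above shNC, at 4.69 and 5.65 FPKM against 1.01 and 0.71. FOXA1 (0.07 and 0.01 against 1.47 and 1.25) and KRT19 (0.83 and 1.19 against 4.97 and 5.27) were below it. The part of these markers in the Notch results was not tested.

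In the shNC line, NOTCH2 was the most abundant of the 10 genes per length, at 13.6 ± 0.134 FPKM (SD, n = 2). It was followed by JAG1 (6.60 ± 0.191), HES1 (5.71 ± 0.672) and NOTCH1 (4.87 ± 0.0566), whose libraries did not overlap. JAG2 (0.80 ± 0.0566), NRARP (0.635 ± 0.0495) and NOTCH3 (0.60 ± 0.141) came next, and the last 2 overlapped. HEY1 lay at 0.215 ± 0.0354 FPKM, and DLL4 and DLL1 were near 0. The order differed in the knockdown lines: HES1 led in shHMGA2-1, at 46.7 ± 4.09 FPKM, and JAG1 and JAG2 overlapped there, whereas in shHMGA2-2 NOTCH2 led at 22.0 ± 0.0849 and NOTCH1 fell behind JAG2.

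**Figure D1:**
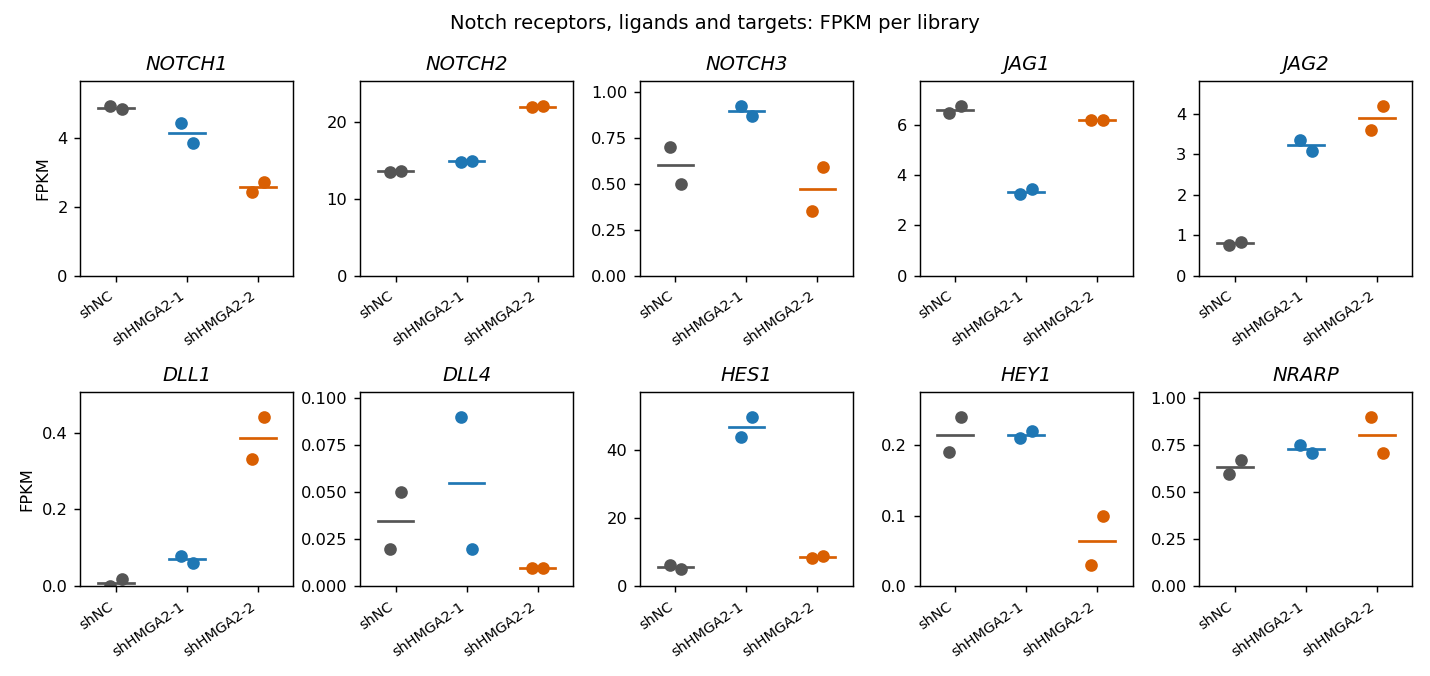
FPKM (y axis, from 0, with its own scale in each panel) of the 10 Notch genes in the shNC, shHMGA2-1 and shHMGA2-2 lines; points are the 2 libraries of a line and bars their mean. HES1 stands at 43.8 and 49.6 FPKM in shHMGA2-1 against 5.23 to 8.93 in the other lines, and JAG2 is above shNC in both knockdown lines.

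Differences were tested on counts with edgeR's quasi-likelihood test, and a gene was called at a Benjamini-Hochberg adjusted p under 0.05 over 16110 genes. Fold changes are of CPM, counts scaled to library size. DLL4 had too few counts to be tested. DLL1 entered the test only through its counts in shHMGA2-2, the line in which it is high, so its calls are listed but support nothing, and counts of members that include it are descriptions. HEY1 passed only through shNC and shHMGA2-1, where it is higher than in shHMGA2-2. Its calls in shHMGA2-2 are likewise listed but support nothing, and counts of members that include it are descriptions. In shHMGA2-1 against shNC, HES1 and JAG2 rose and JAG1 and NOTCH1 fell, where 15.8% of all tested genes were called higher and 17.6% lower. Of all those calls 47.2% were higher, and 58.8% with upper quartile scaling. Of the 4 members called, HES1, JAG2 and JAG1 changed by at least 2-fold, which 4.89% of all genes did upwards and 3.59% downwards. In shHMGA2-2 against shNC, JAG2, DLL1, NOTCH2 and HES1 rose and NOTCH1, JAG1 and HEY1 fell, where 29.5% of all genes were called higher and 29.2% lower. Here JAG2, DLL1, NOTCH1 and HEY1 passed 2-fold, against 11.7% of all genes upwards and 9.65% downwards. Both comparisons share the shNC libraries. Between the knockdown lines, NOTCH2, JAG1 and DLL1 were higher in shHMGA2-2 and NOTCH1, NOTCH3, HES1 and HEY1 were lower, where 24.5% of all genes were called higher and 25.7% lower. DLL1 was past 2-fold upwards and HES1 and HEY1 downwards, as were 7.83% and 7.27% of all genes.

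**Figure D2:**
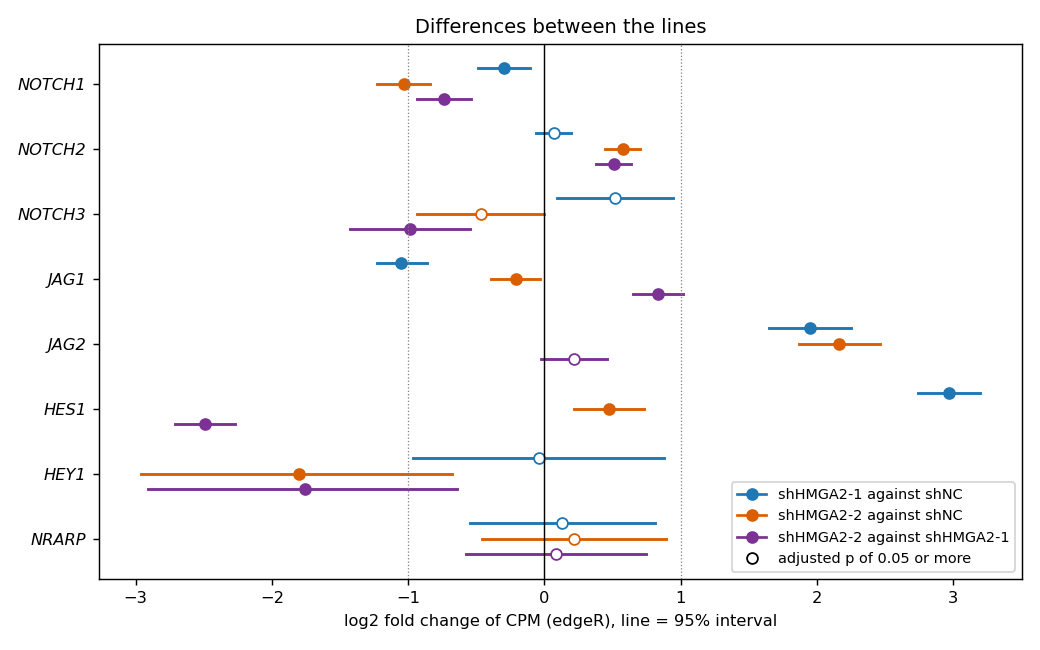
The log2 fold change of CPM (x axis) of 8 Notch genes (y axis) in the 3 comparisons, with 95% intervals from edgeR; filled points have an adjusted p under 0.05 and dotted lines mark 2-fold. HES1 and JAG1 take different places in the knockdown lines, while JAG2 is near 2 in both; DLL1 and DLL4 are left out because shNC had almost no counts of them.

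Among the receptors, NOTCH1 fell and NOTCH2 rose in shHMGA2-2. NOTCH1 (chromosome 9, 136494433 to 136546048, minus strand, GRCh38) measured 4.91 and 4.83 FPKM in the control libraries, 4.44 and 3.85 with shHMGA2-1 and 2.44 and 2.73 with shHMGA2-2. No library of one line overlapped another line. Relative to shNC it fell by 1.03 on the log2 scale in shHMGA2-2 (SE 0.0946, adjusted p = 1.32e-09), a level 2.05-fold lower. The fall in shHMGA2-1 was smaller, at -0.30 (SE 0.0908, adjusted p = 0.0138), and this call was lost in 6 of 13 alternative analyses, among them those without shNC replicate 1 (adjusted p = 0.116), without shNC replicate 2 (0.094) and without shHMGA2-1 replicate 2 (0.0613), over a range of 0.00104 to 0.215. The direct difference of shHMGA2-2 from shHMGA2-1 was -0.74 (SE 0.0953, adjusted p = 5.93e-07). In RNA from whole cultures, fewer cells that express a gene and less RNA in each cell cannot be told apart.

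NOTCH2 (chromosome 1, 119911553 to 120100779, minus strand), a receptor of the same family, measured 13.52 and 13.71 FPKM in the control libraries, 14.85 and 15.00 with shHMGA2-1 and 21.97 and 22.09 with shHMGA2-2. The libraries of shHMGA2-2 were far above the others. The gene rose 1.49-fold against shNC in that line, a log2 change of 0.58 (SE 0.062, adjusted p = 2.16e-08), and lay 0.51 above shHMGA2-1 (SE 0.0619, adjusted p = 2.39e-07). Although the FPKM of shHMGA2-1 did not overlap those of shNC, their log2 difference after TMM scaling was 0.07, with a 95% interval of -0.0602 to 0.197 (adjusted p = 0.437). The partial copies NOTCH2NLA, NOTCH2NLB and NOTCH2NLC had 28 to 121 counts, against 3843 to 6135 of NOTCH2, and reads shared between them could have been split.

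NOTCH3 (chromosome 19, 15159038 to 15200995, minus strand) was the scarcest of the receptors among the members. It measured 0.70 and 0.50 FPKM in the control libraries, 0.92 and 0.87 with shHMGA2-1 and 0.35 and 0.59 with shHMGA2-2, from 54 to 149 counts. The control libraries overlapped those of shHMGA2-2 and lay below those of shHMGA2-1. Neither difference from shNC was called, at 0.52 for shHMGA2-1 (SE 0.205, adjusted p = 0.0543) and -0.47 for shHMGA2-2 (SE 0.225, adjusted p = 0.0772). The first was called in 4 of 12 alternatives, including that without shNC replicate 1 (adjusted p = 0.0393) and that without shHMGA2-2 replicate 1 (0.0497), and the second in 2 of 12, without shNC replicate 2 (0.0361) and without shHMGA2-2 replicate 2 (0.0141). Their adjusted p ranged from 0.0311 to 0.434 and from 0.0141 to 0.623. The direct difference of shHMGA2-2 from shHMGA2-1 was -0.99 (SE 0.213, adjusted p = 4.2e-04), a difference that was called in 10 of 12 alternatives and lost with limma on log2(FPKM + 1) and log2(FPKM + 0.1) (0.0753 and 0.0904).

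The make-up of the receptor pool differed between lines. NOTCH2 supplied 70.7% and 72.0% of the summed FPKM of the 3 receptors in the control libraries, 73.5% and 76.1% with shHMGA2-1 and 88.7% and 86.9% with shHMGA2-2. The ratio of NOTCH2 to NOTCH1 was 2.75 and 2.84 in the control libraries, 3.35 and 3.90 with shHMGA2-1 and 9.004 and 8.09 with shHMGA2-2, with no overlap between lines. The sum itself was 19.0 to 20.2 FPKM in shNC and shHMGA2-1 and 24.8 and 25.4 FPKM in shHMGA2-2. These shares are descriptions of each library.

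Of the ligands, JAG2 rose in both knockdown lines and JAG1 fell mainly in shHMGA2-1. JAG2 (chromosome 14, 105140982 to 105168824, minus strand) measured 0.76 and 0.84 FPKM in the control libraries, 3.36 and 3.08 with shHMGA2-1 and 3.59 and 4.18 with shHMGA2-2. Every knockdown library was above both control libraries. The gene rose 3.86-fold in shHMGA2-1, a log2 change of 1.95 (SE 0.145, adjusted p = 1.26e-10), and 4.48-fold in shHMGA2-2, a change of 2.16 (SE 0.143, adjusted p = 2.85e-12). Both calls held in 13 of 13 alternatives. The knockdown lines differed by 0.22 (95% interval -0.0285 to 0.459, adjusted p = 0.135), which was not called.

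JAG1 (chromosome 20, 10637684 to 10673999, minus strand), the other Jagged ligand, measured 6.46 and 6.73 FPKM in the control libraries, 3.24 and 3.44 with shHMGA2-1 and 6.18 and 6.20 with shHMGA2-2. The libraries of shHMGA2-1 lay well below all others. JAG1 fell by 1.05 on the log2 scale in that line (SE 0.0906, adjusted p = 1.85e-09), and shHMGA2-2 lay 0.84 above it (SE 0.091, adjusted p = 3.76e-08), in 13 of 13 alternatives for each. In shHMGA2-2 against shNC the value was -0.21 (SE 0.0865, adjusted p = 0.04), and this call held in 3 of 13 alternatives, with adjusted p from 0.00857 to 0.349. It was lost without shNC replicate 1 (0.0981) or replicate 2 (0.232), without shHMGA2-2 replicate 1 (0.113) or replicate 2 (0.153), and with the replicate number as a block (0.0722).

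The ratio of JAG2 to JAG1 in FPKM was 0.118 and 0.125 in the control libraries, 1.04 and 0.895 with shHMGA2-1 and 0.581 and 0.674 with shHMGA2-2. JAG1 thus made up 88.1% to 89.2% of the summed FPKM of the 4 ligands in the control line, 47.9% and 52.1% in shHMGA2-1 and 61.1% and 57.3% in shHMGA2-2. JAG1 and JAG2 overlapped in shHMGA2-1, while JAG1 stayed above JAG2 in every library of the other lines.

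**Figure D3:**
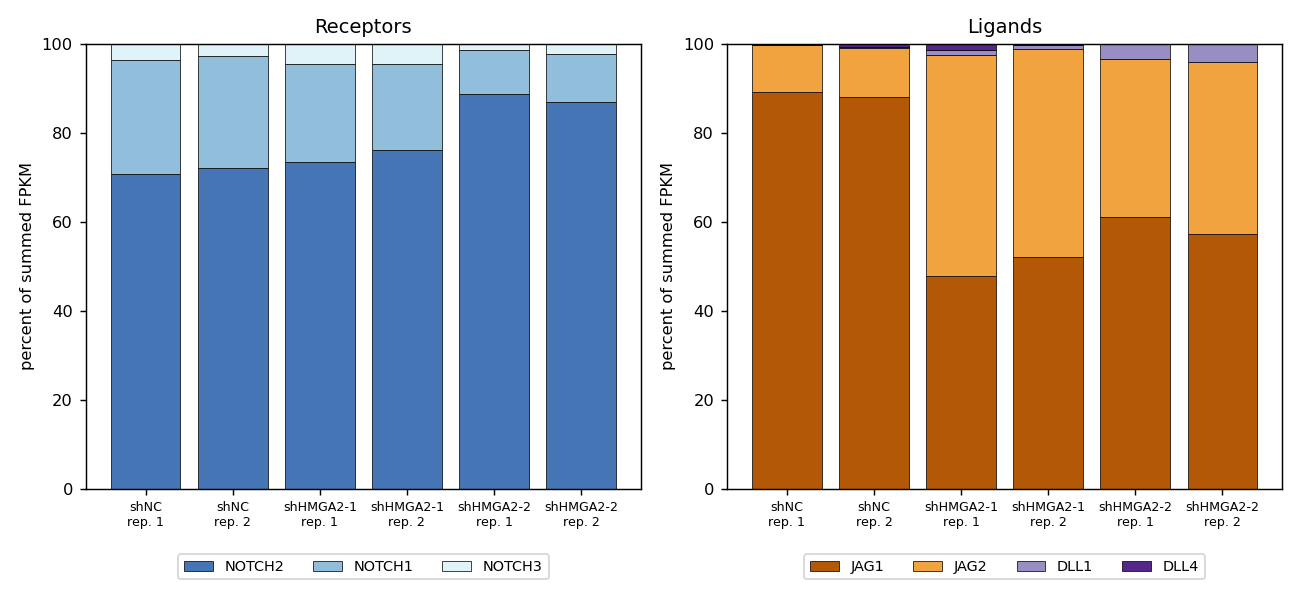
Share of each receptor (left) and each ligand (right) in the summed FPKM of its group (y axis, percent) in the 6 libraries (x axis). NOTCH2 takes 86.9% and 88.7% of receptor FPKM in shHMGA2-2 against 70.7% and 72.0% in shNC, and JAG2 takes 35.5% to 49.6% of ligand FPKM in the knockdown libraries against 10.5% and 10.99% in shNC.

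DLL1 (chromosome 6, 170282206 to 170306565, minus strand), a Delta-like ligand, was nearly absent from shNC. Its counts were 0 and 1 in the control libraries, 5 and 4 with shHMGA2-1 and 21 and 28 with shHMGA2-2, or 0.33 and 0.44 FPKM in the last. The lines did not overlap, and a count of 0 at this depth allows up to 0.177 CPM. On the CPM scale, shHMGA2-2 had 50.4 times the level of shNC, with a 95% exact interval of 8.62 to 2029 that covers counting error only, and 5.65 times that of shHMGA2-1 (2.75 to 13.1). The ratio of shHMGA2-1 to shNC was 8.91 (1.24 to 391). These ratios are a description, since DLL1 passed the filter on low counts only through shHMGA2-2. FAM120B, with 799 to 1084 counts, overlaps DLL1 on the opposite strand and the strand setting of the counting is not given in the sources used here, although the exons of the 2 genes shared 0 bases in GENCODE version 29.

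DLL4 (chromosome 15, 40929340 to 40939073, plus strand), a ligand best known from endothelium, was counted 2 and 4 times in the control libraries, 7 and 2 times with shHMGA2-1 and 1 time in each library with shHMGA2-2. All lines overlapped or lay within a few counts of each other, and no difference was detectable at this depth.

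Among the target genes HES1 changed most in shHMGA2-1, and the 3 targets did not move together. HES1 (chromosome 3, 194136148 to 194138732, plus strand) encodes a basic helix-loop-helix repressor and is the classical direct target of Notch. It measured 6.18 and 5.23 FPKM in the control libraries, 43.77 and 49.55 with shHMGA2-1 and 8.32 and 8.93 with shHMGA2-2. The shHMGA2-1 libraries stood apart from all others, and those of shHMGA2-2 were just above the controls. Against shNC the gene rose 7.82-fold in shHMGA2-1, a log2 change of 2.97 (SE 0.111, adjusted p = 9.11e-16), and 1.39-fold in shHMGA2-2, a change of 0.48 (SE 0.125, adjusted p = 0.00212). The second call was lost without shNC replicate 2 (0.36, adjusted p = 0.0681; range over 13 alternatives 2.4e-04 to 0.0681). The direct difference of shHMGA2-2 from shHMGA2-1 was -2.49 (SE 0.106, adjusted p = 1.03e-15).

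The bases upstream of HES1 are shown because it had the largest log2 change of the members in shHMGA2-1 against shNC. Among the 8 members with a promoter window, it was also the only one whose window held the core motif of RBPJ. Promoter windows of 250 bases before and 50 after the start site were taken from RefSeq (GRCh38.p14) and matched 8 of the 10 genes. HEY1 and DLL1 had no window and were not searched, so nothing is known here of the motif in them. The motif TGGGAA was searched on both strands, where its reverse complement reads TTCCCA. It was found in the window of HES1 and of no other of the 8, at -84 and -70 from the start site on the gene's own strand, 14 bases apart and without overlap. At least 1 match was present in 24% of 35116 promoter windows, and at least 2 in 3.8%. The 250 bases upstream of the start site of HES1 (chr3:194135898-194136147, plus strand) are given 5′ to 3′ with the matches in capitals.
HES1: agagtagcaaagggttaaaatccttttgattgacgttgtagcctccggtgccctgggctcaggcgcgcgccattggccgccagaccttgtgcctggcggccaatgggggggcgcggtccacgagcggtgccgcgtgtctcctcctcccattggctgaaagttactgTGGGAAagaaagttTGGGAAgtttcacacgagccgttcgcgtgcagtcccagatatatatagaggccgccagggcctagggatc
A match is a description of the letters, and binding was not measured.

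HEY1, a repressor related to HES1, was scarce in every line. Its counts were 18 and 22 in the control libraries, 20 and 21 with shHMGA2-1 and 3 and 9 with shHMGA2-2, or 0.19 and 0.24, 0.21 and 0.22, and 0.03 and 0.10 FPKM. The shHMGA2-2 libraries lay below the other 4, which overlapped. HEY1 passed the filter on low counts only through shNC and shHMGA2-1, where it is higher. The log2 changes in shHMGA2-2 given next, and their calls, are therefore a description. The log2 change in shHMGA2-2 was -1.80 against shNC (SE 0.551, adjusted p = 0.00661) and -1.76 against shHMGA2-1 (SE 0.55, adjusted p = 0.00929), each called in 8 of 12 alternatives. Both calls were lost without shHMGA2-2 replicate 1, with changes of -1.24 (adjusted p = 0.092) and -1.20 (0.118), and over all alternatives the adjusted p ranged from 0.00174 to 0.128 and from 0.00314 to 0.147. The difference of shHMGA2-1 from shNC was -0.04, with an interval of -0.965 to 0.88 (adjusted p = 0.963), and its sign turned with upper quartile scaling (0.02).

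NRARP (chromosome 9, 137299631 to 137302271, minus strand), a small ankyrin repeat protein that dampens Notch signalling, showed no called difference. It measured 0.60 and 0.67 FPKM in the control libraries, 0.75 and 0.71 with shHMGA2-1 and 0.90 and 0.71 with shHMGA2-2, from 27 to 39 counts. The knockdown lines overlapped each other and both lay above the control libraries in FPKM. The log2 differences from shNC were 0.13 (interval -0.547 to 0.813, adjusted p = 0.803) and 0.22 (-0.457 to 0.892, adjusted p = 0.592). Changes up to about the upper ends of these intervals could not be seen at this depth.

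When the 4 knockdown libraries were taken as a single group, JAG2 alone of the members was called, with a log2 change of 2.06 (SE 0.167, adjusted p = 0.00421), where 2.34% of all genes were called higher and 2.92% lower. This call was lost without shNC replicate 1 (adjusted p = 0.104) and without shNC replicate 2 (0.103). HES1 had the value 2.2 (SE 0.914, adjusted p = 0.195) with a spread that included the difference between the knockdown lines. The values of NOTCH1 (-0.62, adjusted p = 0.2), NOTCH2 (0.34, 0.294) and JAG1 (-0.57, 0.264) were likewise not called. The fit counts the 4 libraries as independent although they come from the shHMGA2-1 and shHMGA2-2 lines only, so its p-values overstate the replication.

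A further 70 genes of the pathway, listed by role, were all in the table and 60 could be tested. In shHMGA2-1 against shNC 13 rose and 19 fell, where 15.8% of all genes were called higher and 17.6% lower. These 32 calls became 16 without shNC replicate 2 and 18 without shNC replicate 1. In shHMGA2-2 against shNC 24 rose and 17 fell, beside 29.5% and 29.2% of all genes. Between the knockdown lines 20 were higher and 14 lower in shHMGA2-2, beside 24.5% and 25.7% of all genes. The calls were 53.3%, 68.3% and 56.7% of the list genes tested. In some comparisons they include genes that passed the filter only through lines in which they are high, such as DTX3, DTX4, TLE2, HES7 and LFNG. The median absolute log2 change of the list was 0.237, 0.501 and 0.372 in these comparisons, against 0.261, 0.467 and 0.376 for all tested genes. Over the 9 members tested, DLL1 among them, the medians were 0.518, 0.575 and 0.836, which is a description only. Changes of these genes are on the log2 scale and, unless another comparison is named, against shNC, with shHMGA2-1 first.

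**Figure D4:**
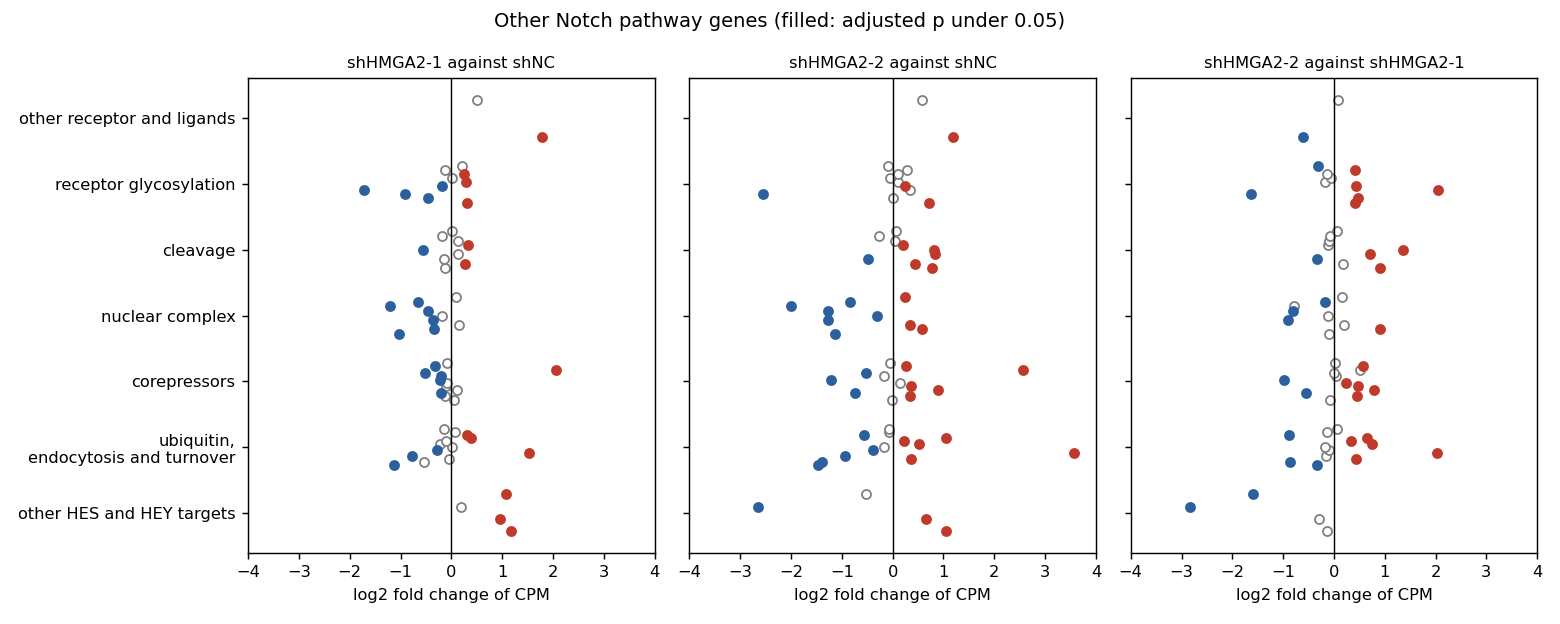
The log2 fold change of CPM (x axis) of the tested genes of the pathway list, by role (y axis), in the 3 comparisons; red points were called higher, blue lower, and open points were not called. In the nuclear complex 6 of 9 tested genes were called lower than in shNC in each knockdown line. Of all genes 17.6% were called lower in shHMGA2-1 and 29.2% in shHMGA2-2. DTX3, beyond the axis, is left out.

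In the nuclear complex 6 of 9 tested genes fell in shHMGA2-1 and 0 rose, where 17.6% of all genes fell and 15.8% rose. In shHMGA2-2 6 fell and 3 rose, where the shares of all genes were 29.2% and 29.5%. The same shares stand beside the counts of the other roles below. RBPJ, chosen after its values were seen, fell by 0.66 on the log2 scale in shHMGA2-1 (SE 0.0715, adjusted p = 7.97e-08) and by 0.84 in shHMGA2-2 (SE 0.0719, adjusted p = 3.62e-10). RBPJ also fell in the line in which HES1 was highest, and a link between them was not tested. The acetyltransferase CREBBP fell by 1.04 and 1.14, and the Mastermind coactivator MAML3 by 1.21 and 2.00. MAML2, another coactivator, fell by 0.47 and 1.28, and the acetyltransferase KAT2B by 0.36 and 1.27. SNW1, an adaptor with the highest level of this group (70.3 FPKM over all libraries), was not called in shHMGA2-1 (0.09, adjusted p = 0.378) and rose by 0.24 in shHMGA2-2.

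Of the other HES and HEY genes 4 of 7 could be tested, and 3 rose in shHMGA2-1. HES4 was counted 40 and 41 times in the control libraries, 121 and 72 times with shHMGA2-1 and 90 and 86 times with shHMGA2-2, with log2 changes of 1.17 and 1.04 against shNC (adjusted p = 7.51e-04 and 0.00115). HEYL rose by 1.08 in shHMGA2-1 (adjusted p = 0.00875) and differed by -1.60 in shHMGA2-2 from shHMGA2-1 (adjusted p = 2.27e-04). HES7 was lower in shHMGA2-2, where it had 3 and 1 counts, with a log2 change of -2.65 against shNC (adjusted p = 0.00367). It passed the filter only through shNC and shHMGA2-1, where it is higher, so this value is a description. HES6, chosen after its values were seen, rose by 0.96 in shHMGA2-1 (adjusted p = 0.00328) and 0.66 in shHMGA2-2 (adjusted p = 0.0257). Of these genes, HES4 and HEYL held TGGGAA in their promoter windows, HES6 and HES7 did not, and HES5 and HEY2, which had too few counts to be tested, held 2 matches each. The matches of HES4 and HEYL are shown for comparison with those of HES1, in capitals within 30 bases of the gene's own strand (GRCh38.p14, minus strand of chromosome 1 for both).
HES4, chr1:1000156-1000185: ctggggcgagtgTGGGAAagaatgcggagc
HEYL, chr1:39639804-39639833: ccgcctagggccTTCCCAcggctcggcggc
HEYL, chr1:39639725-39639754: aggaaagggcccTGGGAAagggcggtggcg
All 7 of these genes had a promoter window and 4 of them held the motif.

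Genes acting at the receptor and the ligand changed in both directions. Of 9 cleavage genes, 2 rose and 1 fell in shHMGA2-1 and 5 rose and 1 fell in shHMGA2-2. FURIN, which cleaves the receptor precursor, fell by 0.55 in shHMGA2-1 and rose by 0.81 in shHMGA2-2, a difference of 1.36 between them (SE 0.0932, adjusted p = 1.04e-11). APH1A, a subunit of γ-secretase and the most abundant gene of this group, was not called in shHMGA2-1 (-0.15, adjusted p = 0.127) and fell by 0.48 in shHMGA2-2. Among 10 tested glycosylation genes 3 rose and 4 fell in shHMGA2-1 and 2 rose and 1 fell in shHMGA2-2. The fringe enzyme LFNG fell by 1.72 in shHMGA2-1 (edgeR, adjusted p = 0.0019) from 35 and 28 counts to 11 and 9. LFNG passed the filter only through shNC and shHMGA2-2, where it is higher, so its place among those that fell is a description. The xylosyltransferase GXYLT2 fell by 2.55 in shHMGA2-2 (edgeR, adjusted p = 2.36e-09). POGLUT3, a protein O-glucosyltransferase, rose by 0.25 in shHMGA2-1.

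In the group of ubiquitin ligases, endocytosis and turnover, 3 of 14 tested genes rose and 3 fell in shHMGA2-1, and 6 rose and 5 fell in shHMGA2-2. DTX3, a Deltex ubiquitin ligase, was counted 2 and 2 times in the control libraries, 3 and 1 times with shHMGA2-1 and 258 and 308 times with shHMGA2-2. Its CPM in shHMGA2-2 was 145 times that of shNC, with a 95% exact counting interval of 56.5 to 535. Like DLL1, it passed the filter only through shHMGA2-2, so its place among the 6 that rose is a description. DTX4 rose by 1.53 and 3.56 in the knockdown lines, from 4 and 5 counts in shNC. It passed the filter only through the knockdown lines, where it is higher, so its place among those that rose is a description. AAK1, a kinase of clathrin-mediated endocytosis, fell by 1.12 and 1.46. The ligand-directed ligase MIB2 rose by 0.39 and 1.05, and DNER, a ligand-like protein, fell by 1.40 in shHMGA2-2. NUMB, the most abundant gene of the group, was not called in either line (0.08 and -0.07).

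Of 12 tested corepressors 1 rose and 5 fell in shHMGA2-1, and 5 rose and 3 fell in shHMGA2-2. HDAC1, a histone deacetylase, was not called in shHMGA2-1 (0.11, adjusted p = 0.21) and rose by 0.90 in shHMGA2-2. TLE2 of the Groucho family rose by 2.05 and 2.57 from 2 and 4 counts in shNC. It passed the filter only through the knockdown lines, where it is higher, so its place among those that rose is a description. In the group of other receptors and ligands, DLK2, a ligand-like protein, rose by 1.79 and 1.18 (adjusted p = 5.41e-09 and 2.49e-06). With the 4 knockdown libraries as a single group, 6 genes of the list were called: DLK2 was higher, and RBPJ, CREBBP, AAK1 and, named after their values were seen, TLE1 and DTX3L were lower. Of all genes 2.34% were called higher and 2.92% lower in this fit, which counts libraries of the same line as independent.

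Among the 69 tested genes of the members and the list, the patterns most like that of HES1 over the 6 libraries by Pearson's r of log2 CPM were those of POGLUT3 (0.909), HEYL (0.855) and DLK2 (0.838). For HEY1 they included CTBP2 (0.931) and APH1A (0.903), and for NRARP SNW1 (0.791), ADAM17 (0.727) and POGLUT1 (0.633). With 6 libraries in 3 lines these values describe mainly differences between lines.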

How the data were processed

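RNA-seq libraries of MDA-MB-231 cells were grouped by sample titles. Library names of the controls read WT, those of shHMGA2-1 read SH2 and those of shHMGA2-2 follow another scheme. The titles were followed. The authors deposited raw counts per gene and FPKM, each a count scaled by the total of its library and the exonic size of its gene. This was checked on the table, where 100% of FPKM values were recovered within 0.005. The submitters' processing notes name HISAT2 2.2.1, HTSeq 0.6.1 and GRCh38.p13. The strand setting is not given in the sources used here.

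Members, gene lists and tests were chosen with earlier results of these data known. Counts were tested with edgeR 4.0.16 (R 4.3.3): TMM factors 0.958 to 1.05, filterByExpr, a model of 3 groups, quasi-likelihood tests and Benjamini-Hochberg adjustment over 16110 genes. The 4 knockdown libraries were also compared with shNC as a single group. Scripts were tested on simulated data. Alternatives were DESeq2 1.42.0, limma 3.58.1 on log2(FPKM + 1) and log2(FPKM + 0.1), no filter, a mean FPKM of at least 1, upper quartile scaling, a replicate block and each library left out, where a lone library is assumed to vary like the others. The readings of the 2-fold results under the alternatives other than DESeq2 were added after seeing the data.

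All 10 members were named. Of the 70 other pathway genes, those past 2-fold in any comparison of the 3 groups and the most abundant of each role were named, together with the 3 genes most like each of HES1, HEY1 and NRARP; RBPJ, TLE1 and DTX3L were named outside this rule, and 1 gene that met it is not reported here. Libraries of a line differed by more than sampling noise (chi-square per degree of freedom 2.03 to 6.49). Counting intervals are exact binomial at 95%; they and the floor of 3 counts cover only counting error, as there are no molecular identifiers.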

Additional observations from a re-analysis of the deposited data

Results flagged for a closer look

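For 7 members the effects of the 2 shRNA lines differed by the direct test of shHMGA2-2 against shHMGA2-1 (edgeR, adjusted p under 0.05), where 24.5% of all genes were called higher and 25.7% lower. Of the 7, DLL1 passed the filter on low counts only through shHMGA2-2, so its value is a description. HEY1 passed only through shNC and shHMGA2-1, where it is higher, so its value is a description too. The log2 differences were -0.736 for NOTCH1, 0.507 for NOTCH2, -0.987 for NOTCH3, 0.836 for JAG1, 2.41 for DLL1, -2.49 for HES1 and -1.76 for HEY1. Both libraries of each line lay on the same side for all 7. NOTCH3 is the case in which neither line was called against shNC although the lines differed from each other. In groups of 2 libraries no single library could be set apart from its group.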

How the results depend on the processing

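Of 452 member log2 values under the alternatives, 408 kept direction and side of the threshold, 29 lost the call, 6 gained it and 9 changed sign. The sign changed for 3 uncalled values: HEY1 in shHMGA2-1 against shNC (0.0211 with upper quartile scaling, 0.000293 and 0.00438 with limma on log2(FPKM + 1) and log2(FPKM + 0.1), -0.184 to 0.109 with a library left out), NRARP between the knockdown lines (-0.113 to 0.257 with a library left out) and NOTCH3 in the single group (-0.11 to 0.355 likewise). Counts of members in comparisons with shHMGA2-2 include DLL1 and HEY1, whose values there are descriptions. In shHMGA2-1 the 32 list genes called became 21 with DESeq2, 15 and 16 with limma, and 16 to 31 with a library left out, the lowest without shNC replicate 2 and 18 without shNC replicate 1. A mean FPKM of at least 1, which leaves fewer members to test, gave 4 members called of the 7 in shHMGA2-2 against shNC and 4 of the 7 between the knockdown lines. Members past 2-fold in shHMGA2-2 numbered 4, DLL1 included, and 1 with that filter, 1 and 2 with limma, and 2 to 4 with a library left out (2 without shHMGA2-2 replicate 1). Between the knockdown lines they numbered 3, and 1 with that filter, 1 and 2 with limma, 2 with DESeq2, and 2 to 4 with a library left out. In shHMGA2-1 the 3 past 2-fold became 2 with upper quartile scaling, 2 with limma and 2 to 3 with a library left out. The single-group count of 1 became 0 without either shNC replicate, a range of 0 to 1. Apart from these counts, the causes of which were not tested, the counts of members and list genes called stayed within 1.5 times.

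Upper quartile scaling moved the median of all genes from 0.03 to 0.14 in shHMGA2-2 against shNC, and the share of calls that were higher from 47.2% to 58.8% in shHMGA2-1. The replicate numbers did not pair the libraries (correlations of deviations -0.0218, 0.00213 and -0.1). With the replicate block 4, 6 and 7 members were called in the 3 comparisons, and JAG1 in shHMGA2-2 against shNC (-0.21) lost its call. Depth limits DLL1, DLL4, HEY1 and NRARP, which had at most 39 counts in any library.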

Other observations

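Among genes with a count in any library, HES1 had a higher FPKM than 79.3% to 81.1% of genes in shNC, 97.2% to 97.7% in shHMGA2-1 and 84.4% to 84.9% in shHMGA2-2. JAG2 was above 60.7% to 61.6% of genes in shNC and 73.5% to 76.1% in the knockdown libraries. The histone acetyltransferase EP300, chosen after its values were seen, differed in direction between the lines, at -0.34 in shHMGA2-1 (adjusted p = 0.00409, edgeR) and 0.58 in shHMGA2-2 (adjusted p = 2.54e-06), with 0.91 between them (adjusted p = 2.92e-09), whereas the related CREBBP was lower in both.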
